A study of Homo sapiens with 4 samples.

Results

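Lamin B1 occupancy was examined at 6 genes that mark epithelial and mesenchymal cell states: CDH1, CDH2, VIM, ZEB1, SNAI2 and TWIST1. The members were taken by position, as every 40 kb bin of the deposited enrichment tables that overlaps the hg19 span of one of these genes or the 1 Mb on either side of it. This gave 318 rows in LNCaP and 316 in VCaP, and 315 bins had a value in both lines, of 71569 such bins genome-wide. The spans themselves covered 18 bins. The bins come from chromatin immunoprecipitation and sequencing of 2 human prostate cancer lines. LNCaP cells are labelled prostate adenocarcinoma and were grown in RPMI with serum. VCaP cells are labelled bone metastatic prostate cancer and were grown in DMEM F12 with serum. The labels name no engineered allele and no drug, and all 4 libraries come from cells fixed with formaldehyde and sheared by sonication. Each line had 1 library made with a lamin B1 antibody and 1 input library without antibody, and each value is the log2 ratio of the first to the second. Read depth was not given in the sources used here, so no counting error could be attached to a value. A difference between the lines therefore compares 2 pairs of libraries and has no replicate check. The errors below are noise SDs, which measure how much the values vary between bins 3 apart in the same table, for the mean over the bins concerned. A difference over 2 noise SD is called larger or smaller, and this is not a test over samples.

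Epithelial cells are held together by E-cadherin, the product of CDH1. In the epithelial-mesenchymal transition this adhesion is lost and cells gain N-cadherin, from CDH2, and the intermediate filament vimentin, from VIM. The transcription factors ZEB1, SNAI2 (Slug) and TWIST1 drive the change, and all 3 bind E-box motifs, through which ZEB1 and SNAI2 repress CDH1. Chromatin bound to the nuclear lamina is in most cell types poor in genes and low in transcription, and genes can move into or out of contact with it when cells change state. Transcript levels of the genes were not analysed here.

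The 6 genes did not share a lamina state. The deposited hidden Markov model puts each bin in an associated state, or in the other state. The associated bins averaged 0.43 (LNCaP) and 0.58 (VCaP) on the log2 scale, the other bins -0.15 and -0.11. CDH1 was in the associated state in both lines and VIM in neither. CDH2, ZEB1 and TWIST1 were in it in LNCaP only, and SNAI2 in VCaP only. The associated state thus held 4 of 6 genes in LNCaP, where it held 37.8% of all bins, and 2 of 6 in VCaP, where it held 44.4%. With a mean above the line's genome median in place of the deposited state, the count was 3 of 6 in each line, and with a mean above 0 LNCaP had 4 and VCaP 3. The contrast between the lines thus depends on the definition. The label differed between the lines at 4 of 6 genes, against 41.0% of bins genome-wide. The mean enrichment was called higher in VCaP at CDH1 and SNAI2, called higher in LNCaP at CDH2 and ZEB1, and within 2 noise SD at VIM and TWIST1. Over the 6 genes the median difference, VCaP minus LNCaP, was -0.04, beside 0.10 over all common bins. These counts over 6 chosen genes are a description. Stretches of a window that are given by their coordinates in the accounts of single genes were picked after their values were seen, and they too are descriptions.

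**Figure D1:**
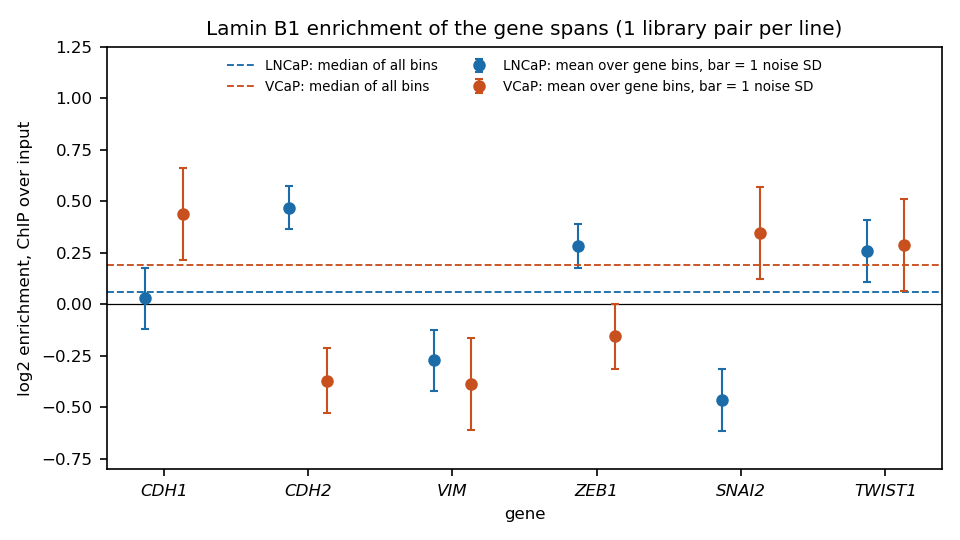
Mean log2 lamin B1 enrichment over the bins of each gene span (vertical axis) for the 6 genes (horizontal axis) in LNCaP and VCaP. Points are 1 library pair per line, bars are 1 noise SD and dashed lines are each line's median over all bins; CDH2 and ZEB1 lie above 0 in LNCaP and below 0 in VCaP, and SNAI2 the reverse.

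CDH1, on chromosome 16 from 68771000 to 68870000, lay in a long lamina-associated domain in both lines. Its 3 bins, from the start of the gene onward, had log2 enrichments of 0.17, 0.04 and -0.12 in LNCaP and of 0.47, 0.46 and 0.38 in VCaP. VCaP was higher in each bin, and the ranges of the lines did not overlap. These bins are neighbours from the same libraries, and their deposited values were treated as averages that overlap. Their agreement is therefore a description and adds no check to the difference of the means. With the averaging undone the ranges nearly met, with 0.11 in the highest LNCaP bin and 0.13 in the lowest VCaP bin. The means were 0.03 ± 0.15 (noise SD) in LNCaP and 0.44 ± 0.22 in VCaP, which exceeded 46.5% and 70.4% of the bins of the respective line. VCaP exceeded LNCaP by 0.41 (noise SD 0.20), or 2.08 noise SD. Among all runs of 3 adjacent bins, 27.0% had VCaP higher by more than 2 noise SD and 13.5% had LNCaP higher by as much. The call at CDH1 is a narrow one: the difference was 0.27 after subtracting genome medians, 0.28 after subtracting chromosome medians, 0.26 after quantile normalization and 0.30 in the bin of the gene start alone, and in none of these was it called. It was also not called against the noise of both lines combined, a limit added after the data were seen.

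The domain around CDH1 ran from 54080001 to 69200000 in LNCaP (378 bins, mean 0.52) and from 56600001 to 69240000 in VCaP (316 bins, mean 0.53). The gene sat near its distal end, 330 kb from the border in LNCaP and 370 kb in VCaP. In LNCaP the enrichment dipped at CDH1 and rose again beyond it, and in VCaP it was lower from the gene onward. The 10 bins before the gene, on the side of its neighbour CDH3, which encodes P-cadherin, had a mean of 0.48 in LNCaP (0.25 to 0.61) and 0.73 in VCaP (0.51 to 0.86). The 8 bins after it, on the side of its other neighbour TANGO6 and up to the LNCaP border, had means of 0.24 in LNCaP (0.09 to 0.34) and 0.52 in VCaP (0.43 to 0.64). The deposited values were treated as trailing means of 3 bins, which was inferred and is not stated by the submitters in the sources used here. With that mean undone the 3 CDH1 bins had -0.27, -0.21 and 0.11 in LNCaP and 0.13, 0.54 and 0.48 in VCaP. In LNCaP the gene thus carried the associated label with an undone mean of -0.12, below 0, whereas the undone VCaP mean was 0.38. Chromosome 16 was high in both lines, with medians of 0.45 in LNCaP and 0.58 in VCaP, and relative to that median CDH1 was at -0.42 in LNCaP and at -0.14 in VCaP. The profiles of the lines across the 53 bins of the window ran in parallel, with a Pearson r of 0.84 and a Spearman rho of 0.84, and 36 of these bins were associated in both lines. These and the later coefficients are descriptions over neighbouring bins that share averaged entries.

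**Figure D2:**
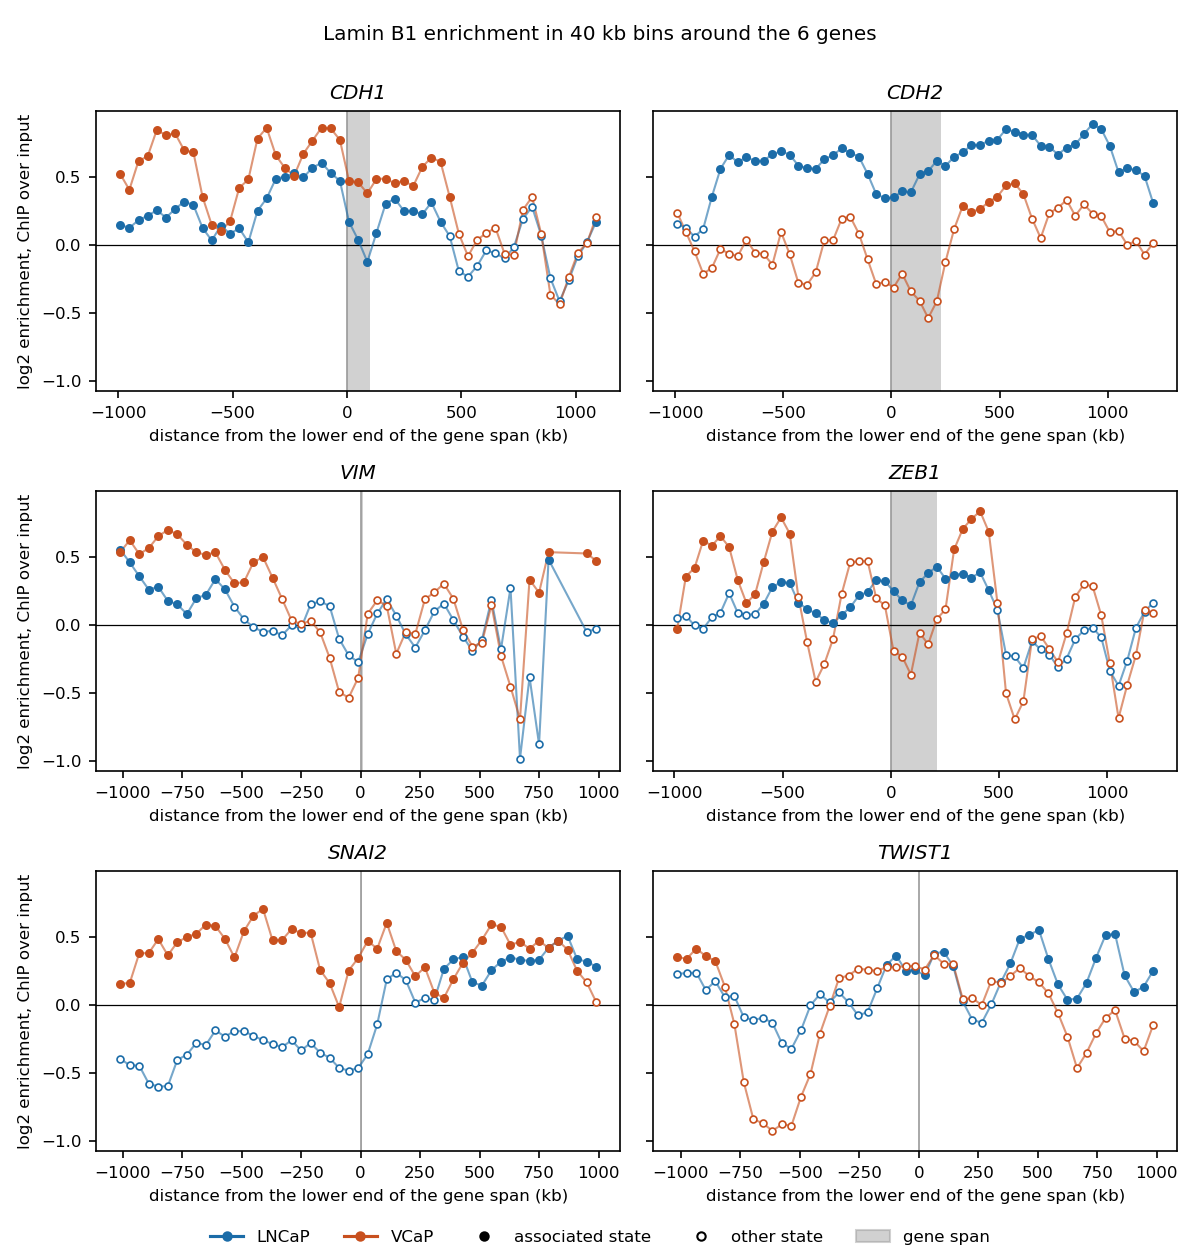
Log2 lamin B1 enrichment of each 40 kb bin (vertical axis) against distance from the lower end of the gene span in kb (horizontal axis) for the 6 windows. Lines and points are LNCaP and VCaP, filled points are in the associated state and grey marks the gene span; the lines run in parallel around CDH1, run apart across CDH2 and join to the right of SNAI2.

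CDH2, on chromosome 18 from 25530000 to 25758000, showed the largest difference of the 6 genes. Its 6 bins, in order along the chromosome, had log2 enrichments of 0.35, 0.40, 0.39, 0.52, 0.54 and 0.62 in LNCaP. The same bins had -0.31, -0.21, -0.34, -0.41, -0.54 and -0.41 in VCaP. Each bin was above 0 and associated in LNCaP, and each was below 0 and in the other state in VCaP. The means were 0.47 ± 0.11 (noise SD) in LNCaP and -0.37 ± 0.16 in VCaP, and they exceeded 85.1% of LNCaP bins but 10.4% of VCaP bins. VCaP minus LNCaP was -0.84 (noise SD 0.14), and it lay between -1.03 and -0.84 under the 9 other settings tried. Of these, the other noise estimates could not move the value. Among runs of 6 adjacent bins, 19.2% had LNCaP higher by over 2 noise SD and 34.6% had VCaP higher by over 2 noise SD. CDH2 is transcribed toward lower coordinates, so its start lies in the sixth bin. As deposited, the fifth and sixth bins were the farthest apart, at -1.08 and -1.03, and the first and second differed by -0.66 and -0.61. With the averaging of bins undone, the fourth bin was the farthest apart, with 0.69 in LNCaP and -0.57 in VCaP. The fifth bin then had 0.41 in LNCaP and -0.49 in VCaP, and the sixth 0.76 and -0.18. The widest gap is thus not tied to the gene start.

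In LNCaP, CDH2 lay inside an associated domain of 3.88 Mb, from 24680001 to 28560000 (97 bins, mean 0.57). In VCaP it lay in a stretch of 3.2 Mb outside the associated state, from 22640001 to 25840000 (80 bins, mean -0.02). That stretch ended 82 kb beyond the gene start, where VCaP had an associated block of 8 bins to 26160000 with a mean of 0.34, beside 0.77 in LNCaP in the same bins. With the mean of 3 bins undone, VCaP had 0.30 and 0.24 in the bins between the gene and that block. Around the gene LNCaP was higher by more than 2 noise SD in 47 of the 56 window bins and VCaP in 0, against 14.1% and 27.6% of single bins genome-wide. Over the whole window VCaP minus LNCaP was -0.57 (noise SD 0.05), so the difference extended beyond the gene. Among runs of 52 adjacent bins, the median width of the 6 windows, LNCaP was called higher in 32.6% and VCaP in 46.8%. In VCaP the window reached its lowest deposited value, -0.54, in a CDH2 bin. With the mean of 3 bins undone, the lowest VCaP value was -0.61, in the lower flank from 25080001 to 25120000. The lowest CDH2 bin then had -0.57. Gene minus flanks was -0.44 in VCaP (noise SD 0.17) and -0.14 in LNCaP (noise SD 0.11), the latter within 2 noise SD. The difference between these, VCaP minus LNCaP, was -0.304 (noise SD 0.148), just over 2 noise SD. The nearest protein-coding genes in RefSeq order are CHST9, a sulfotransferase gene, and DSC3, which encodes the desmosomal cadherin desmocollin 3.

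ZEB1, on chromosome 10 from 31607000 to 31819000, differed in the same direction as CDH2 but less. Its 6 bins had log2 enrichments of 0.25, 0.18, 0.14, 0.32, 0.38 and 0.43 in LNCaP. In VCaP they had -0.19, -0.23, -0.36, -0.05, -0.14 and 0.05. LNCaP was higher in each of the 6 bins, and the lowest LNCaP bin lay above the highest VCaP bin. These deposited values share averaged entries. Once the averaging was undone, LNCaP was still higher in each bin, but the ranges overlapped, from 0.08 to 0.59 in LNCaP and from -0.56 to 0.39 in VCaP. The sixth bin then had 0.33 and 0.31. The means were 0.28 ± 0.11 (noise SD) and -0.16 ± 0.16, above 72.6% of LNCaP bins and 21.5% of VCaP bins. VCaP minus LNCaP was -0.44 (noise SD 0.14), and it was no longer called when the noise was taken from the ZEB1 window alone, where a noise SD of 0.22 applied to the same -0.44.

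At ZEB1 the flanks did not share the direction of the gene. Over the 56 bins of the window VCaP minus LNCaP was 0.06 (noise SD 0.05). That value was -0.08 after subtracting genome medians and -0.05 with flanks of 500 kb, and with flanks of 2 Mb it was 0.12 and called. VCaP was higher by over 2 noise SD in 9 of these bins and LNCaP in 6, both smaller shares than the 27.6% and 14.1% of single bins genome-wide. In VCaP the gene lay in a non-associated stretch of 720 kb between 2 associated blocks, and the values within that stretch were uneven. The stretch began 447 kb before the gene with a bin at 0.21. Then came 4 low bins from 31200001 to 31360000, with a mean of -0.23 and a lowest bin of -0.42, below the lowest ZEB1 bin. The VCaP mean then rose to 0.47 over the 3 bins from 31400001 to 31520000, before the mean of -0.16 at ZEB1. The last 14 bins of the block before the gene, from 30600001 to 31160000, had a VCaP mean of 0.47 and a LNCaP mean of 0.13. The block from 31880001 to 32080000 after it began 61 kb beyond the gene end and had means of 0.71 in VCaP and 0.35 in LNCaP over 5 bins. With the mean of 3 bins undone, VCaP had 0.60 in the bin between the gene and that block. In LNCaP the associated state ran without a break over 1.08 Mb, from 31000001 to 32080000, and ended with the second VCaP block at the same bin border. Gene minus flanks was 0.23 in LNCaP (noise SD 0.11) and -0.33 in VCaP (noise SD 0.17), the first just over and the second just within 2 noise SD. The difference between these, VCaP minus LNCaP, was -0.56 (noise SD 0.15). Against flanks of 200 kb, a width chosen after the data were seen, the VCaP value was -0.63 and the LNCaP value -0.02. The next protein-coding genes in RefSeq are ZNF438, a zinc finger gene, and LOC124906892.

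The 250 bases upstream of the outermost RefSeq start of CDH2 and of ZEB1 are shown because these 2 genes had the associated label in LNCaP only together with a called difference. They are from RefSeq on GRCh38.p14, a build other than that of the bins: CDH2 on chr18:28177131-28177380, minus strand, and ZEB1 on chr10:31318167-31318416, plus strand. Capitals mark the E-box CANNTG, which reads the same way on both strands.
CDH2: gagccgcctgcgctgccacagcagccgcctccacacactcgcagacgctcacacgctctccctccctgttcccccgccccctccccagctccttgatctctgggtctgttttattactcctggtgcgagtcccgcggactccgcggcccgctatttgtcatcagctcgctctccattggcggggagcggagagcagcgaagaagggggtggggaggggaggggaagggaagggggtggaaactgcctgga
ZEB1: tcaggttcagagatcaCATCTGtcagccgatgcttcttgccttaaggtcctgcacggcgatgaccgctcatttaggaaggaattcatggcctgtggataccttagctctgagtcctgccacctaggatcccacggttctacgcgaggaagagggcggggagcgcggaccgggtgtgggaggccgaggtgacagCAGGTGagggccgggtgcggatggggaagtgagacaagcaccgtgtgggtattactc
ZEB1 holds 2 matches to CANNTG, 1 of which is CAGGTG, a form of the E-box that ZEB1 and SNAI2 proteins are known to bind. The CDH2 sequence holds none. Of 35116 RefSeq promoters of this length, 61.8% hold CANNTG and 17.5% hold CAGGTG or its reverse complement CACCTG. The CDH2 window has 17 CpG dinucleotides and a GC content of 66%, the ZEB1 window has 15 and 59.2%, and the median promoter has 11 and 58%. A promoter entry was matched for 3 of the 6 genes, the third being VIM, with no CANNTG, 8 CpG and a GC content of 46%. At a width of 40 kb the bins do not resolve these windows, and no value is assigned to a promoter or a motif here.

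VIM, on chromosome 10 from 17270000 to 17280000, was low in both lines. Its single bin had a log2 enrichment of -0.27 ± 0.15 (noise SD) in LNCaP and -0.39 ± 0.22 in VCaP. These values exceeded 15.4% of LNCaP bins and 9.81% of VCaP bins, and the bin was outside the associated state in both. The difference of -0.12 was within its noise SD of 0.20, and it was 0.14 with the averaging of bins undone. VIM lay in a non-associated stretch of 1.32 Mb in LNCaP and 1.04 Mb in VCaP, with the nearest border 550 kb below it in LNCaP and 350 kb below it in VCaP. The window mean was 0.03 in LNCaP and 0.19 in VCaP, and 26 of its 48 bins were associated in neither line.

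Each deposited value was taken to average its own bin and the 2 before it. On that reading the low value at VIM rests in part on the bins below the gene. With the mean undone the VIM bin had -0.16 in LNCaP and -0.02 in VCaP. The deposited value of the next bin, which centres the average on VIM, was -0.07 in LNCaP and 0.08 in VCaP. The dip against the flanks was -0.31 in LNCaP (noise SD 0.15) and -0.59 in VCaP (noise SD 0.23) as deposited. With the average undone it was -0.21 in each line, within 2 noise SD. TRDMT1, an RNA methyltransferase gene, is the neighbour on the lower side and ST8SIA6, a sialyltransferase gene, the neighbour on the upper side. Between 17840001 and 18080000 the VIM window borders a gap of the common bins and its values are uneven, from -0.98 to 0.48 in LNCaP and from -0.69 to 0.54 in VCaP. Over the window VCaP minus LNCaP was 0.15 (noise SD 0.05), and it dropped below 2 noise SD with either centring, after quantile normalization and with flanks of 500 kb.

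SNAI2, on chromosome 8 from 49830000 to 49834000, differed in the direction opposite to CDH2 and ZEB1. Its single bin had a log2 enrichment of -0.46 ± 0.15 (noise SD) in LNCaP and 0.35 ± 0.22 in VCaP. The LNCaP value was the lowest of the 6 genes in that line, above 5.96% of its bins, and the VCaP value was above 63.3% of bins. VCaP minus LNCaP was 0.81 (noise SD 0.20), and it stayed between 0.60 and 0.83 under the 9 other settings. Of these, the other noise estimates and the start bin, which is the same bin, could not move the value. Of single bins genome-wide, 27.6% had VCaP higher by over 2 noise SD and 14.1% had LNCaP higher by as much.

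The difference at SNAI2 belonged to a long stretch that ended just beyond the gene. From 48800001 to 49920000, 28 bins that hold SNAI2, LNCaP had a mean of -0.35 and stayed below 0, with a highest bin of -0.14, and VCaP had a mean of 0.42. LNCaP was associated in 0 of these bins and VCaP in 28. From 50160001, where LNCaP entered the associated state 326 kb above the gene, the lines had means of 0.33 and 0.36 over 17 bins and differed by 0.04 (noise SD 0.08). The 28-bin stretch starts at the window edge and was picked for LNCaP values below 0. With the averaging undone, its last bin had 0.20 in LNCaP. The lower flank lies inside that stretch, so the flanks restate the step: VCaP was higher by 0.78 in the lower flank and by 0.13 in the upper one. VCaP was associated in 49 of the 51 window bins, and 34 were associated in VCaP only. The profiles of the lines were not alike across this window, with a Pearson r of -0.06 and a Spearman rho of 0.01, the lowest of the 6. The non-associated LNCaP stretch reached down to 45000001 and holds 1 entry wider than 40 kb. The neighbours in RefSeq order are CLXN, which encodes calaxin, a calcium-binding protein of cilia, and PPDPFL.

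TWIST1, on chromosome 7 from 19155000 to 19158000, differed in its label while its enrichment differed by less than the noise SD. Its bin had 0.26 ± 0.15 (noise SD) in LNCaP and 0.29 ± 0.22 in VCaP. VCaP minus LNCaP was 0.03 (noise SD 0.20), and it was -0.14 after subtracting chromosome medians. These values exceeded 70.4% of LNCaP bins and 58.4% of VCaP bins. LNCaP was in the associated state and VCaP was not. Of the bins whose label differs between the lines, 11.8% have values within 1 noise SD of each other, as here. The LNCaP domain at TWIST1 was short, 8 bins from 19000001 to 19320000, with means of 0.31 in LNCaP and 0.30 in VCaP, and all 8 bins lay in the other state in VCaP. The VCaP stretch that holds them ran over 3.76 Mb, from 18320001 to 22080000, with a mean of -0.09.

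Away from TWIST1 the lines parted. From 18400001 to 18720000 the VCaP mean was -0.77 over 8 bins, with a lowest bin of -0.92, and the LNCaP mean was -0.15. The neighbour on that side in RefSeq order is HDAC9, a histone deacetylase gene, whose span was not placed on the bins. From 19480001 to 20160000 LNCaP was associated in 17 of 17 bins with a mean of 0.29, and VCaP in 0 of 17 with a mean of -0.08. The other neighbour, FERD3L, encodes a bHLH factor like TWIST1. LNCaP was higher by over 2 noise SD in 16 of the 51 window bins and VCaP in 0, against 14.1% and 27.6% of single bins genome-wide, and over the window VCaP minus LNCaP was -0.18 (noise SD 0.05). With flanks of 500 kb it was -0.03 and no longer called. TWIST1 was above its flanks by 0.12 in LNCaP (noise SD 0.15) and by 0.33 in VCaP (noise SD 0.23), both within 2 noise SD.

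**Figure D3:**
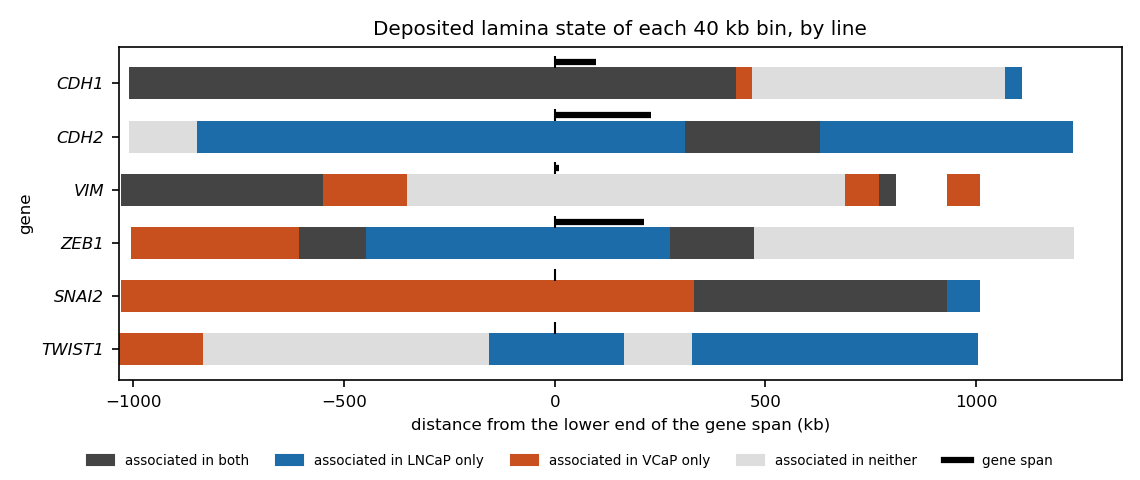
Deposited state of each 40 kb bin with a value in both lines, by gene (vertical axis) and distance from the lower end of the gene span in kb (horizontal axis). Colours give the line or lines in which the bin is associated, the black bar above each row is the gene span and white marks bins without a common value; CDH1 sits in a stretch associated in both lines, CDH2, ZEB1 and TWIST1 in stretches associated in LNCaP only, and SNAI2 in one associated in VCaP only.

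Set in order, the levels placed the genes differently in each line. In LNCaP the order was CDH2, ZEB1, TWIST1, CDH1, VIM and SNAI2, from 0.47 down to -0.46. In VCaP it was CDH1, SNAI2, TWIST1, ZEB1, CDH2 and VIM, from 0.44 down to -0.39. No 2 neighbours in either order differed by more than 2 noise SD of their difference, the widest gaps being 0.30 between CDH1 and VIM in LNCaP and 0.44 between TWIST1 and ZEB1 in VCaP. The sign of the mean was opposite in the lines at CDH2, ZEB1 and SNAI2, 3 of 6 genes, against 36.5% of bins genome-wide. After subtracting genome medians it was opposite at CDH1 too, with -0.03 in LNCaP and 0.25 in VCaP.

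Across the 6 windows, 81 of the 315 bins (25.7%) were associated in both lines, 85 (27.0%) in neither, 90 (28.6%) in LNCaP only and 59 (18.7%) in VCaP only. Genome-wide these shares were 20.6%, 38.4%, 17.2% and 23.8%. Of the 90 bins associated in LNCaP only, 44 were in the CDH2 window, 25 in the TWIST1 window and 18 in the ZEB1 window. Of the 59 in VCaP only, 34 were in the SNAI2 window. The window differences, VCaP minus LNCaP, were 0.23 at CDH1, 0.15 at VIM and 0.46 at SNAI2, and -0.57 at CDH2 and -0.18 at TWIST1, each over 2 noise SD. These 5 of 6 windows stand beside 46.8% of runs of 52 bins with VCaP called higher and 32.6% with LNCaP called higher, so a call is common at this width. The sizes also depended on the zero point and the flanks. CDH1 was 0.10 after subtracting genome medians and, not called, 0.084 after quantile normalization. VIM lay between 0.019 and 0.048, not called, in 4 settings. SNAI2 was 0.25 and TWIST1 -0.35 after subtracting chromosome medians, and TWIST1 was -0.03, not called, with flanks of 500 kb. Bins of a window are neighbours and are not independent.

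Whether a gene stood apart from its own surroundings does not depend on the zero point of a line. Against its 1 Mb flanks, the gene span was lower in 4 of 6 genes in LNCaP, in 4 of 6 in VCaP and in both lines at CDH2, VIM and SNAI2. Of all bins, 48.3% lay below the mean of their 1 Mb flanks in LNCaP, 47.0% in VCaP and 31.6% in both. These counts rest on signs of small values: across the 5 other settings they ranged from 3 to 5 genes in LNCaP, from 3 to 5 in VCaP and from 2 to 4 in both. SNAI2 in VCaP turned positive in 3 settings and CDH2 in LNCaP in 1, with flanks of 2 Mb (0.024). Beyond 2 noise SD, VIM (-0.31) and SNAI2 (-0.40) were lower than their flanks in LNCaP, where ZEB1 was higher (0.23). Of single bins, 8.81% were lower by that limit in LNCaP, and 14.6% of runs of 6 bins were higher. In VCaP CDH2 (-0.44) and VIM (-0.59) were lower beyond the limit, against 10.3% of runs of 6 bins and 7.26% of single bins. The calls at VIM were lost in both lines with the averaging undone, with the value moved by 1 bin, and with flanks of 500 kb or 200 kb. In LNCaP the call at ZEB1 was lost with flanks of 500 kb (0.14) and of 200 kb (-0.02), and that at SNAI2 with flanks of 200 kb (-0.28). The difference of gene minus flanks between the lines, given above for CDH2 and ZEB1, was within 2 noise SD at the other genes. It was 0.19 at CDH1, -0.27 at VIM, 0.36 at SNAI2 and 0.22 at TWIST1 (noise SD 0.20 each). No genome-wide share was computed for this difference. At CDH1 gene minus flanks was -0.14 in LNCaP and 0.05 in VCaP, both within 2 noise SD. The LNCaP value was -0.30 with the averaging undone and -0.36 with flanks of 200 kb, both over 2 noise SD, and the VCaP value was negative in 4 of 5 other settings. The first of these calls rests on the noise SD of the undone values, 0.109, and fails against that of the deposited values, 0.154.

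**Figure D4:**
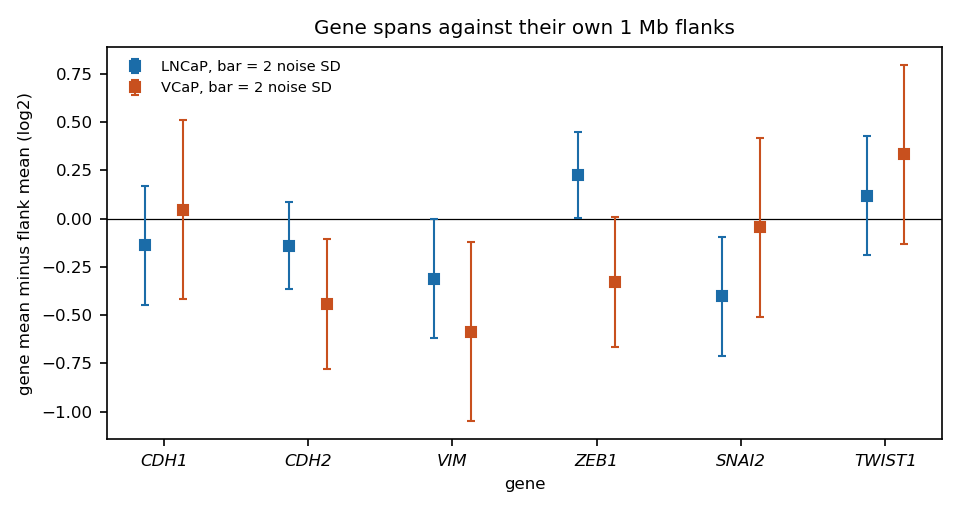
Mean log2 enrichment of each gene span minus the mean of its 1 Mb flanks (vertical axis) for the 6 genes (horizontal axis), in LNCaP and VCaP. Bars are 2 noise SD; ZEB1 is above 0 in LNCaP and below 0 in VCaP, and VIM is below 0 in both lines.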

How the data were processed

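The authors deposited, per the file headers and names, log2 enrichment of lamin B1 ChIP over input in 40 kb bins and a table with 1 of 2 hidden Markov model states per bin. STAR and hg19 are named per the submitters' processing notes, and the scaling of ChIP to input is not given in the sources used here. AD, the state with the higher mean, was taken as associated. Tripling the deposited values made 99.5% (LNCaP) and 99.6% (VCaP) of them whole at the eighth decimal, within 0.01 of a unit, against 33.4% and 33.1% unchanged, so each was treated as the mean of 3 entries, its own and the 2 before.

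Spans came from the given hg19 positions. Noise is the median absolute difference between bins 3 apart, times 1.4826, over the square root of 2, with 1 separate value counted per 3 bins. For a single bin it was 0.15 in LNCaP, 0.22 in VCaP and 0.20 for their difference. For values with the averaging undone, noise was taken from adjacent bins, and every bin counted as a separate value. Each group has 1 library, so no test over samples was made. All 6 members are named. A gene that is no member is named only as the nearest neighbour, and RefSeq (GRCh38.p14) gave names, order and promoters. A list of further epithelial and mesenchymal genes was not analysed here, since the gene table used is on GRCh38.p14 and builds were not mixed.

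The members and lists were chosen with earlier results of these data known. Alternatives were the undone mean, a shift by 1 entry, 2 centrings, quantile normalization, other noise estimates, flank widths, state definitions and the start bin. Flanks of 200 kb, combined noise of both lines and the VIM window without 6 bins beside a gap were added after seeing the data. Procedures were tested on simulated data. Tables were handled with pandas 2.3.3 and numpy 2.4.6 in Python 3.11.15, correlations computed with scipy 1.17.1 and plots drawn with matplotlib 3.10.9.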

Additional observations from a re-analysis of the deposited data

Results flagged for a closer look

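At 3 genes the enrichment was above 0 in one line and below 0 in the other, which drew attention to them. Each line has a single pair of libraries, and no test of the difference was made. At CDH2 the VCaP minus LNCaP difference was -0.84, and after subtracting genome medians the levels were 0.41 in LNCaP and -0.56 in VCaP. At ZEB1 the difference was -0.44, with centred levels of 0.23 and -0.35. At SNAI2 the difference was 0.81, with centred levels of -0.52 and 0.15. The signs therefore stayed opposite at all 3 genes with this centring, and they did so with chromosome medians too (0.33 and -0.56 at CDH2, 0.13 and -0.42 at ZEB1, -0.46 and 0.13 at SNAI2). Which genes have opposite signs still depends on the setting. CDH1 joined them with genome medians (-0.03 in LNCaP and 0.25 in VCaP) and with the undone mean (-0.12 and 0.38).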

How the results depend on the processing

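For 38 results, 207 alternative values were computed, and 157 kept their direction and their side of 2 noise SD or their size. At the gene, the differences of CDH2 and SNAI2 kept both under every setting tried, and ZEB1 under all but 1. The cause of the changes below was not tested unless the setting itself narrows the bins. Gene differences: CDH1 was not called at 0.27 (genome medians), 0.28 (chromosome medians), 0.26 (quantile normalized), 0.30 (start bin) and 0.41 (noise of both lines combined), nor ZEB1 at -0.44 (noise of its window). TWIST1 changed sign to -0.10, -0.14 and -0.14 with genome medians, chromosome medians and quantile normalization, and VIM to 0.14 with the undone mean and 0.15 with the shift. Window differences: with genome medians, chromosome medians, quantile normalization and flanks of 500 kb, VIM was not called (0.019, 0.047, 0.031 and 0.048) and ZEB1 changed sign (-0.078, -0.051, -0.060 and -0.049). CDH1 was not called when quantile normalized (0.084), TWIST1 not with flanks of 500 kb (-0.032), and ZEB1 was called with flanks of 2 Mb (0.12). Levels moved to -0.12 at CDH1 in LNCaP and -0.015 at VIM in VCaP with the undone mean, and to -0.066 (LNCaP) and 0.083 (VCaP) at VIM with the shift.

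Gene minus flanks, undone mean: CDH1 -0.30 (LNCaP) and ZEB1 -0.33 (VCaP) passed 2 noise SD, VIM did not (-0.21 in both lines), and CDH1 in VCaP changed sign (-0.012). The 2 new calls rest on the smaller noise SDs of the undone values, 0.109 and 0.118. Against the noise SDs of the deposited values, 0.154 and 0.168, neither passed. Shift: VIM did not pass (-0.12 and -0.095), and SNAI2 in VCaP changed sign (0.084). Flanks of 500 kb: VIM (-0.27 and -0.44) and ZEB1 in LNCaP (0.14) did not pass, and CDH1 in VCaP changed sign (-0.064). Flanks of 2 Mb: ZEB1 in VCaP passed (-0.37), and CDH1 in VCaP (-0.033), CDH2 in LNCaP (0.024) and SNAI2 in VCaP (0.043) changed sign. Flanks of 200 kb: CDH1 in LNCaP (-0.36) and ZEB1 in VCaP (-0.63) passed, VIM (-0.31 and -0.27) and SNAI2 in LNCaP (-0.28) did not, and CDH1 in VCaP (-0.19), SNAI2 in VCaP (0.0044) and ZEB1 in LNCaP (-0.023) changed sign. The counts of genes in the associated state stayed within 1.5 times, at 3 or 4 in LNCaP and 2 or 3 in VCaP, and both were 3 with genome medians as the limit. No paired analysis was possible because no group holds more than 1 library. The depth was not given, so noise between bins is the only limit on a single gene.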
